A study of Homo sapiens with 31 samples.

Results

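Jun, Fos, ATF, BATF and small MAF proteins are basic leucine zipper (bZIP) factors, and the pairs that Jun proteins form with Fos or ATF proteins are known as AP-1. The mRNA levels of 10 of these genes, JUN, JUNB, JUND, FOS, FOSB, FOSL1, FOSL2, ATF3, BATF3 and MAFF, were followed in cell lines that the study used as models of ovarian cancer. They were chosen by gene symbol, and all 10 of 10 were among the 19221 genes with FPKM values (fragment numbers corrected for gene length and library size). There were 31 mRNA libraries in 4 groups. C13* is a cisplatin-resistant line whose homologous recombination is intact, and it carried lentiviral control shRNA (C13* shCON, n = 7) or shRNA against CEBPB, the gene of the bZIP factor C/EBPβ (C13* shCEBPB, n = 8). A2780 (n = 8) is the parent line, with no agent named in its labels, and A2780 OlaR (n = 8) was raised from it under rising doses of the PARP inhibitor olaparib until its IC50 was at least 30 times that of the parent. The study itself writes that the origin of C13* makes its use open to question. It also writes that A2780 was reported as an unlikely line of high-grade serous ovarian cancer. All cells were grown in RPMI-1640 medium with serum, and the methods speak of resistant clones without saying how many made up OlaR. The methods call the replicates biological, but neither they nor the labels say that these came from separate cultures, so p-values measure the spread between these libraries, which may be technical.

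AP-1 binds the sequence TGANTCA and, as Jun-ATF pairs, the cAMP response element TGACGTCA. JUN, FOS, FOSB and ATF3 are immediate-early genes, which are transcribed within minutes of a growth factor or stress signal through MAP kinases and whose mRNAs are short-lived, while FOSL1 follows sustained ERK signalling. In epithelial cancers AP-1 is known for genes of invasion and proliferation, and which Jun or Fos protein is abundant decides which pairs can form.

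The labels were first checked on the values. CEBPB itself had 85.8 ± 9.93 (SD, n = 7) FPKM in shCON and 47.1 ± 9.05 (SD, n = 8) in shCEBPB, 1.82-fold lower with no overlap of the libraries (log2 fold change -0.87, standard error 0.11, adjusted p = 1.42e-06 by limma). It had 99.7 ± 7.63 (SD, n = 8) FPKM in A2780 and 112 ± 11.6 (SD, n = 8) in OlaR, where libraries overlapped (log2 fold change 0.16, adjusted p = 0.0202). In the libraries numbered 1 to 3 the mean of CEBPB was 101 FPKM in OlaR and 105 in A2780. In those numbered 4 to 8 it was 118 and 96.5, so the direction turned with the library number. Across 12967 genes, the group means of A2780 OlaR lay close to those of C13* shCON (r = 0.993, with 0.532% of genes differing 2-fold) and far from those of A2780 (r = 0.709, 34.8%). Those of C13* shCEBPB and C13* shCON also lay apart (r = 0.791, 27.6%). The groups shCEBPB and A2780 lay apart as well (r = 0.724, 36.9%). Each library was then set against the libraries of the other groups. All 8 OlaR libraries were nearest to shCON, and all 7 shCON libraries were nearest to OlaR. Of the shCEBPB libraries, 5 were nearest to OlaR and 3 to shCON, while all 8 A2780 libraries were nearest to shCEBPB. Of 14 squamous and epithelial markers, 14 had a median of at least 1 FPKM in shCON and in OlaR, 4 in shCEBPB and 5 in A2780, and their summed FPKM ran from 4562 to 5098, from 4839 to 5785, from 1451 to 1915 and from 115 to 123. The basal keratin KRT5 had a median of 1573 FPKM in shCON and 1870.1 in OlaR, 0.00988 in shCEBPB and 0 in A2780, and the mesenchymal filament gene VIM had 10.1, 0.159, 342 and 808. Not all of the squamous and epithelial list ran with KRT5. The 4 with a median of at least 1 FPKM in shCEBPB were KRT8, KRT18, KRT17 and DSP. In the same order of groups KRT8 had 461, 496, 889 and 5.87 FPKM, and KRT18 had 318, 292, 525 and 81.3. KRT17 had 611, 462, 262 and 0.200, and DSP had 53.2, 56.1, 50.5 and 28.5. Summed FPKM of 10 mesenchymal and A2780-type markers ran from 62.8 to 71.3 in shCON, from 50.9 to 58.5 in OlaR, from 398 to 444 in shCEBPB and from 962 to 1004 in A2780, and 7, 6, 9 and 7 of them had a median of at least 1 FPKM. VIM made up most of the sum in shCEBPB and A2780, and not all of the list ran with it. CDH2 had medians of 16.6, 18.2, 7.16 and 58.2 FPKM in the same order, and TWIST1 had 6.39, 6.18, 2.77 and 41.1. SNAI2 had 15.8, 13.4, 5.70 and 0.597, while FN1 ranged from 0.537 in A2780 to 7.85 in shCON. Of 5 lymphoid and myeloid markers CD3E had a median of 0 in every group, while the leukocyte gene PTPRC had a median of 83.5 FPKM in A2780 and 0 elsewhere and the macrophage marker CD68 had 64.3 in shCON, 41.5 in OlaR, 11.8 in shCEBPB and 2.20 in A2780. The median of CD14 was under 1 FPKM in every group. Of 6 fibroblast and endothelial markers, COL3A1 had a median of 364 FPKM in A2780 and under 1 elsewhere, COL1A1 had 17.2 in A2780, 17.0 in shCEBPB, 4.54 in OlaR and 3.06 in shCON, and COL1A2 had 4.08 in A2780 and 0 elsewhere. The median of PDGFRB was 4.08 in shCEBPB and under 1 elsewhere, and medians of PECAM1 and VWF were under 1 in every group. The groups are called below by their labels, but a difference between shCEBPB and shCON, or between OlaR and A2780, holds the difference of these whole profiles, and the labelled treatment and the identity of the cells cannot be told apart. In 1 field, shCON replicate 1 is labelled A2780, while its title has C13*, and its FPKM lay with shCON. In bulk RNA, fewer cells of a type and less RNA per cell cannot be told apart either. Low FPKM rise in steps, and these gave each library a depth relative to the rest that ran from 0.864 to 1.23, and absolute depth is unknown. Since many genes differed between the libraries numbered 1 to 3 and 4 to 8 in the library codes of a group, fold changes were also computed within these ranges.

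The promoters of the members are shown because bZIP factors are known to act on the promoters of their own family. RefSeq (GRCh38.p14) gave the 250 bases before and 50 after the start for 8 of the 10 genes, all but FOSL1 and BATF3. In capitals are matches on either strand to TGANTCA, TGACGTCA, its core TGACG (which lies within it), TGACATCA, the C/EBP site TTGCNNAA and the CArG box of serum response factor. TGACATCA was added to the search after the JUN promoter had been read. The start that RefSeq gives lies inside the gene as GENCODE draws it for ATF3, MAFF and FOSL2. Only 1 window per gene was used, so any other start of a gene was not searched.
JUN (chr1:58783998-58784297, minus strand): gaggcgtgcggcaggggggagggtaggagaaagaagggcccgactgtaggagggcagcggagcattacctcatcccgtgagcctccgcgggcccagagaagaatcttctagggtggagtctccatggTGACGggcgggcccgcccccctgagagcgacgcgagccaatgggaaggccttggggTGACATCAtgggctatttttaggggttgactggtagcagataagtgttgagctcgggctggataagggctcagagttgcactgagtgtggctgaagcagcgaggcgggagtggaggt
ATF3 (chr1:212565157-212565456, plus strand): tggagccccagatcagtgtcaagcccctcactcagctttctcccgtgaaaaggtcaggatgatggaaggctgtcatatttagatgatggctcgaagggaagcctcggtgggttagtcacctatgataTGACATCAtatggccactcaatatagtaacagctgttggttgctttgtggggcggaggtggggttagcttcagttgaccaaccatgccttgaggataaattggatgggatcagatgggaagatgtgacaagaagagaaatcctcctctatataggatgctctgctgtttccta
JUND (chr19:18281573-18281872, minus strand): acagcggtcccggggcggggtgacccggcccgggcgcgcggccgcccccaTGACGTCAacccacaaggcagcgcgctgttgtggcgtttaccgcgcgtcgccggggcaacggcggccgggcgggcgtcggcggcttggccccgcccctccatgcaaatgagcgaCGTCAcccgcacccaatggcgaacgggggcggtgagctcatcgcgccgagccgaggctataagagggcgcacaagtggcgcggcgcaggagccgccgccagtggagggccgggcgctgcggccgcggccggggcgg
MAFF (chr22:38201744-38202043, plus strand): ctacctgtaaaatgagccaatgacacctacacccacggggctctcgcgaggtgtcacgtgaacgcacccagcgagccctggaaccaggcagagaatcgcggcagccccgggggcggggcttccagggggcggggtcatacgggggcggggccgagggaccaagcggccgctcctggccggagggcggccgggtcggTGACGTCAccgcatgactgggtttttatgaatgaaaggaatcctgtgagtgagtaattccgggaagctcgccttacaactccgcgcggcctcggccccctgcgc
TGACG was found in 7 of the 8 windows, the exception being the 1 window of ATF3, and in 24.6% of the 35116 promoters of the table. TGACGTCA was in JUND (-200 to -193 from the start) and MAFF (-54 to -47), against 1.85% of all promoters. TGACATCA was in JUN (-67 to -60) and ATF3 (-123 to -116), against 2.61%. TGANTCA was in FOSL2 alone (5 to 11) and in 7.71% of all, while TTGCNNAA (10.5% of all) and the CArG box (1.29%) were in none of the 8 windows. Bases more than 250 before the start were not searched, so such sites may lie outside the windows. GC content of the 8 windows ran from 48.0% (ATF3) to 77.0% (JUND), against a median of 58.7% over all promoters. Such matches are descriptions of letters and not sites shown to be bound.

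**Figure D1:**
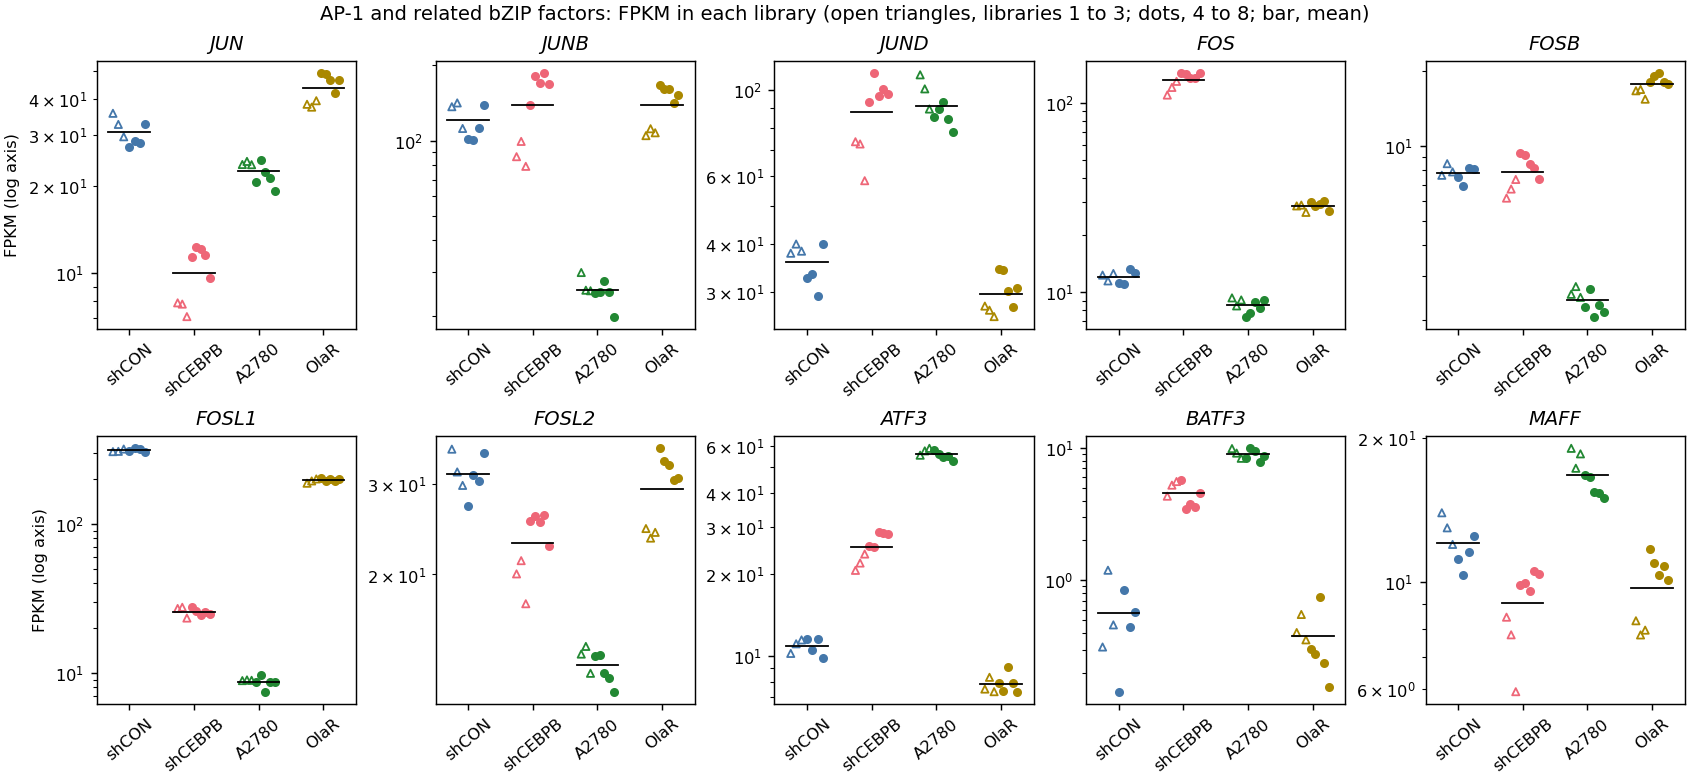
FPKM (log axis) of each of the 10 genes in every library of the 4 groups, 1 panel per gene, with a bar at the group mean; open triangles are libraries numbered 1 to 3 and dots libraries 4 to 8 of each group. FOSL1 is high where BATF3 is low, with FOSL1 running from a mean of 310.0 FPKM in shCON to 8.74 in A2780 and BATF3 running from 8.97 in A2780 to 0.380 in OlaR.

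FOSL1 was the leading Fos gene in shCON and OlaR and fell in shCEBPB, where FOS rose. ATF3, BATF3 and JUND were lower in OlaR than in A2780 and higher in shCEBPB than in shCON, and JUNB was low in A2780 alone. Each pair of groups was compared by limma on log2(FPKM + 1), in a two-sided test with Benjamini-Hochberg adjustment over all genes tested and a threshold of 0.05. Log2 fold changes are on that scale, on which a change of a low gene appears smaller than it is. Ratios are of mean FPKM. The smallest p that the exact permutation test can give was 0.000155, and each member whose libraries did not overlap between groups had that value. In shCEBPB against shCON, 8 of the 10 members passed the test (4 higher, 4 lower), while 84.7% of the 12006 genes tested did. Members without overlap numbered 7 (background 66.0%), and 6 differed at least 2-fold (background 29.5%). In OlaR against A2780, 10 of 10 passed (6 higher, 4 lower; background 89.8%), 10 showed no overlap (74.1%) and 8 differed at least 2-fold (35.7%). The shares that passed were thus near those of all genes in both comparisons. The median size of the log2 fold change was 1.20 for the members and 0.57 for all genes tested in the first comparison, and 2.01 and 0.70 in the second.

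**Figure D2:**
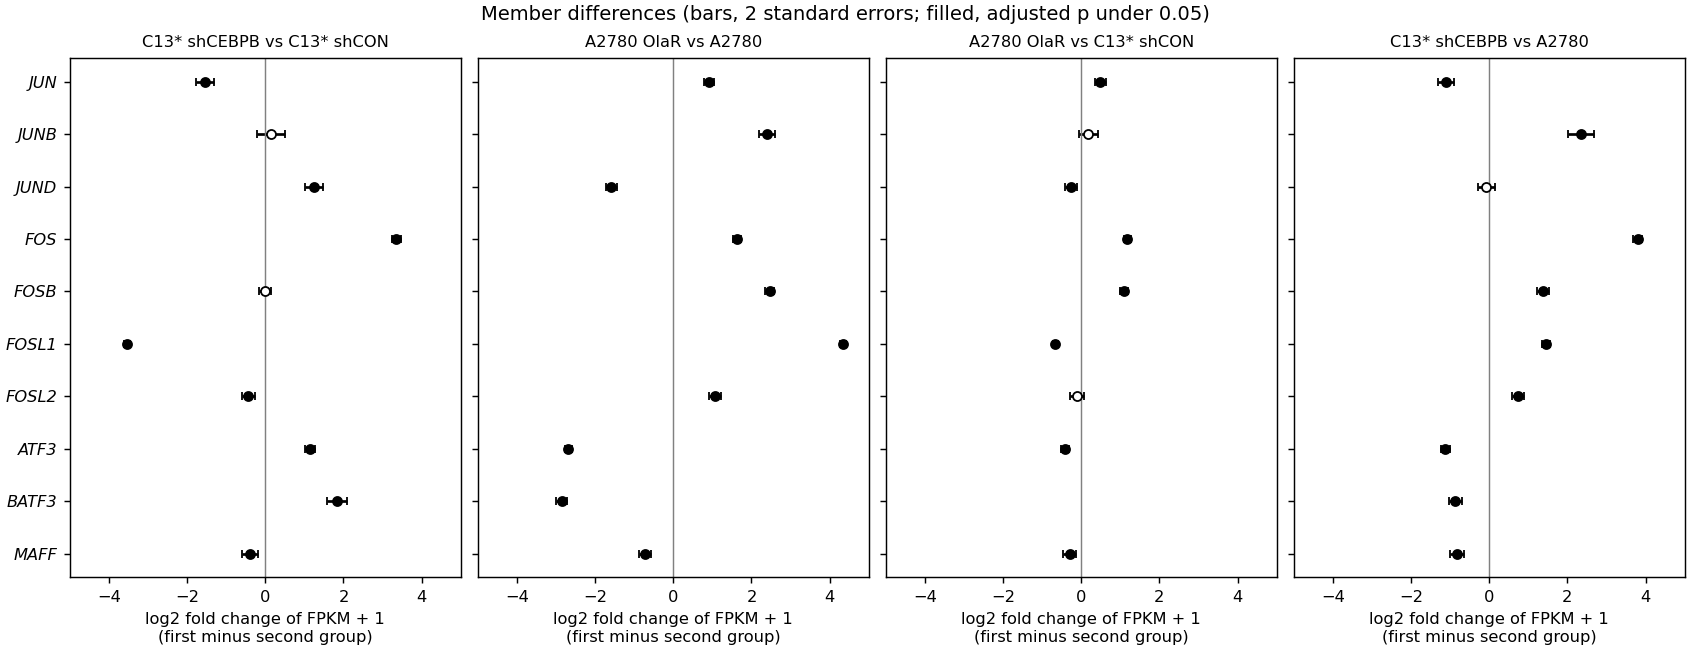
Log2 fold change of FPKM + 1 (x axis) of each of the 10 genes (y axis) in 4 comparisons, first minus second group, with bars of 2 standard errors and filled points where the adjusted p was under 0.05. FOS was higher and FOSL1 lower in shCEBPB than in shCON, both were higher in OlaR than in A2780, and the point of BATF3 is left out of OlaR against shCON, where it was too low to be tested.

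FOS, FOSB, FOSL1 and FOSL2 encode proteins that bind DNA in pairs with Jun proteins. FOSL1 (FRA-1), on chromosome 11 (hg38, chr11:65892049-65900573, minus strand, 4 exons in the canonical transcript), lacks the transactivation domain of FOS and is known from squamous and invasive carcinoma cells. FOSL1 ran from 303 to 320.0 FPKM (median 306) in shCON and from 23.3 to 27.8 FPKM (median 25.7) in shCEBPB. In A2780, FOSL1 ran from 7.48 to 9.64 FPKM (median 8.81), and in OlaR from 187 to 203 FPKM (median 196). No group overlapped another, and the order was shCON, OlaR, shCEBPB and A2780. FOSL1 was 12.0-fold lower in shCEBPB than in shCON (log2 fold change -3.54, standard error 0.040, adjusted p = 5.35e-22) and 22.4-fold higher in OlaR than in A2780 (log2 fold change 4.34, standard error 0.038, adjusted p = 1.71e-25). Its level varied little within a group, with coefficients of variation of 2.19% in shCON, 2.80% in OlaR, 6.15% in shCEBPB and 6.86% in A2780. Between OlaR and shCON, which had alike profiles, FOSL1 still differed, at 1.58-fold lower in OlaR (log2 fold change -0.66, standard error 0.028, adjusted p = 5.67e-12). In shCEBPB against A2780 FOSL1 was 2.95-fold higher (log2 fold change 1.46, adjusted p = 4.11e-16). For FOSL1, shCEBPB against shCON gave -3.53 and -3.55 within libraries 1 to 3 and 4 to 8, and OlaR against A2780 gave 4.29 and 4.37. The marker sums above ran in the same 2 pairs, high squamous sums in shCON and OlaR beside high FOSL1, and their part in the result was not tested.

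FOS (hg38, chr14:75278826-75282230, plus strand, 4 exons), the founding member, took another order. FOS ran from 11.0 to 13.1 FPKM (median 12.3) in shCON and from 109.5 to 143 FPKM (median 135) in shCEBPB. In A2780, FOS ran from 7.40 to 9.29 FPKM (median 8.66), and in OlaR from 26.3 to 30.0 FPKM (median 28.6). Its groups did not overlap, and shCEBPB stood above OlaR, shCON and A2780 in that order. FOS was 11.0-fold higher in shCEBPB than in shCON (log2 fold change 3.35, standard error 0.059, adjusted p = 2.99e-19). It was 3.34-fold higher in OlaR than in A2780 (log2 fold change 1.63, standard error 0.046, adjusted p = 1.73e-17) and 2.37-fold higher in OlaR than in shCON (log2 fold change 1.18, standard error 0.044, adjusted p = 6.46e-13). For FOS, shCEBPB against shCON gave 3.21 and 3.44 within libraries 1 to 3 and 4 to 8, and OlaR against A2780 gave 1.54 and 1.69. The ratio of FOSL1 to FOS was 25.9 ± 1.91 in shCON (SD, n = 7), 6.90 ± 0.416 in OlaR (n = 8), 1.04 ± 0.131 in A2780 (n = 8) and 0.197 ± 0.0262 in shCEBPB (n = 8).

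FOSB (hg38, chr19:45467995-45475179, plus strand, 4 exons), a close relative of FOS, had the lowest mean of the 4 Fos genes in every group. FOSB ran from 6.92 to 8.49 FPKM (median 7.87) in shCON and from 6.17 to 9.41 FPKM (median 7.77) in shCEBPB. In A2780, FOSB ran from 2.06 to 2.72 FPKM (median 2.38), and in OlaR from 15.4 to 19.6 FPKM (median 17.9). OlaR lay above all other groups and A2780 below them, and shCON and shCEBPB overlapped. The difference between shCEBPB and shCON was within the spread in the pooled fit (log2 fold change -0.00050, adjusted p = 0.995, exact permutation p = 0.995). FOSB was 7.40-fold higher in OlaR than in A2780 (log2 fold change 2.46, standard error 0.052, adjusted p = 1.85e-19) and 2.27-fold higher in OlaR than in shCON (log2 fold change 1.09, standard error 0.051, adjusted p = 2.29e-11). For FOSB, shCEBPB against shCON gave -0.22 and 0.14 within libraries 1 to 3 and 4 to 8, and OlaR against A2780 gave 2.28 and 2.57. The -0.22 passed the threshold (adjusted p = 0.0252), while the 0.14 did not. FOSL2 (hg38, chr2:28392448-28417317, plus strand, 4 exons), known as FRA-2, had the narrowest span of the 4, its highest group mean being 2.36 times its lowest. FOSL2 ran from 27.2 to 35.1 FPKM (median 31.2) in shCON and from 17.5 to 26.1 FPKM (median 24.0) in shCEBPB. In A2780, FOSL2 ran from 11.8 to 14.5 FPKM (median 13.4), and in OlaR from 23.5 to 35.2 FPKM (median 30.7). A2780 was below the rest and shCEBPB below shCON, both without overlap, while shCON and OlaR overlapped and did not differ beyond their spread in the pooled fit (adjusted p = 0.343). For FOSL2 in OlaR against shCON, the split gave -0.40 (adjusted p = 0.000455) within libraries 1 to 3 and 0.077 (adjusted p = 0.321) within libraries 4 to 8, so that FOSL2 passed as lower in OlaR in the first range. FOSL2 was 1.36-fold lower in shCEBPB than in shCON (log2 fold change -0.44, standard error 0.082, adjusted p = 7.79e-05). It was 2.21-fold higher in OlaR than in A2780 (log2 fold change 1.07, standard error 0.079, adjusted p = 1.18e-10). For FOSL2, shCEBPB against shCON gave -0.69 and -0.28 within libraries 1 to 3 and 4 to 8, and OlaR against A2780 gave 0.77 and 1.26.

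As shares of the summed FPKM of the 4 Fos genes, FOSL1 made up 85.8% ± 0.922 (SD, n = 7) in shCON, 72.2% ± 1.66 in OlaR, 26.5% ± 1.37 in A2780 and 13.8% ± 1.52 in shCEBPB (n = 8 each). FOS made up 69.9% ± 1.86 in shCEBPB and 3.32% ± 0.215 in shCON, and FOSL2 made up 40.4% ± 1.85 in A2780, where it led. The family sum itself was 361 ± 6.27 FPKM in shCON, 271 ± 9.75 in OlaR, 188 ± 14.8 in shCEBPB and 32.9 ± 1.37 in A2780. FPKM are per length of gene, so levels of different genes can be set side by side, within the limits of the gene models used and of the GC content described below.

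**Figure D3:**
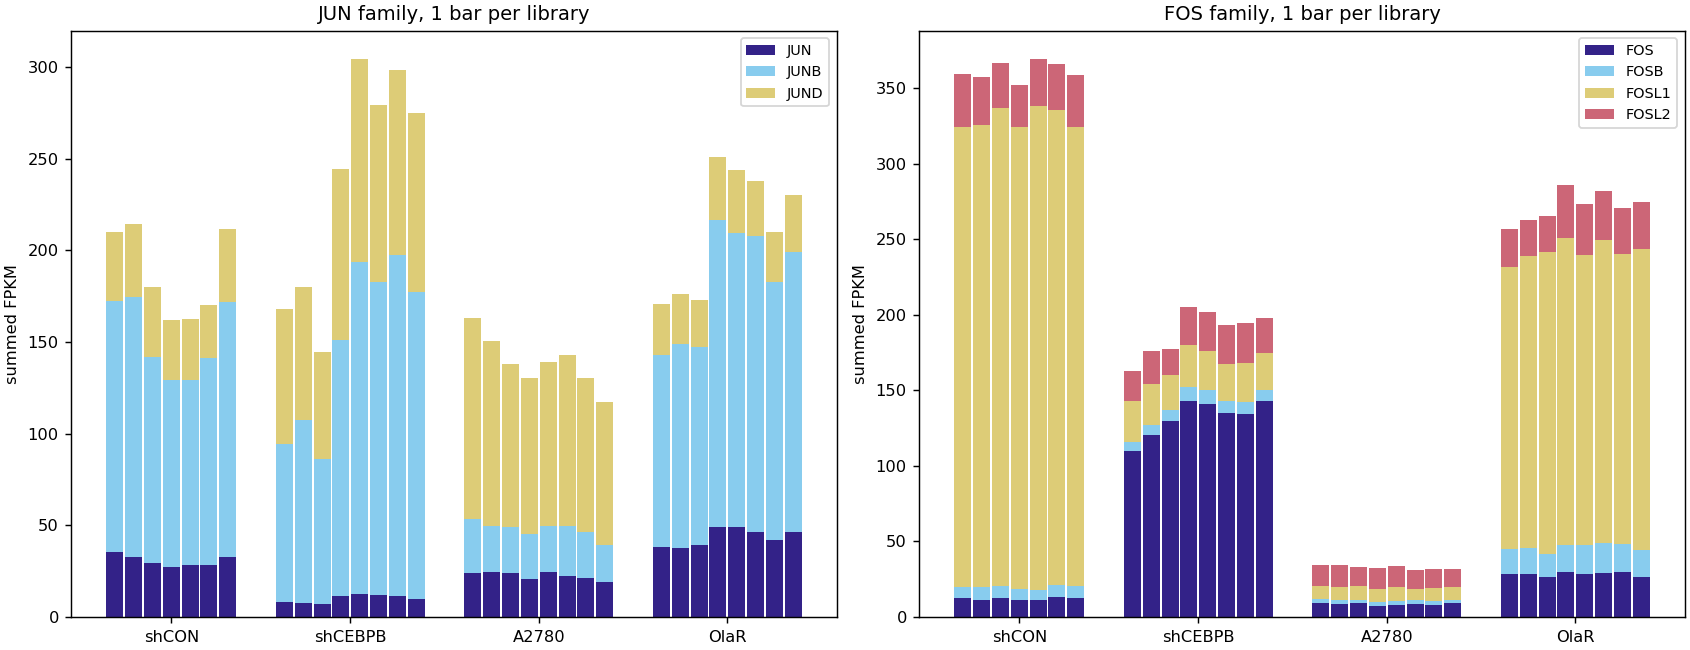
Summed FPKM (y axis, linear) of the Jun genes (left) and Fos genes (right), 1 stacked bar per library in the 4 groups on the x axis. FOSL1 fills most of the Fos bars of shCON and OlaR (85.8% ± 0.922 and 72.2% ± 1.66), FOS fills those of shCEBPB (69.9% ± 1.86), and JUND fills most of the Jun bars of A2780 (65.6% ± 1.13).

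JUN, JUNB and JUND can pair with each other as well as with Fos proteins. JUN (hg38, chr1:58776845-58784048, minus strand, 1 exon), the target of JNK, whose own promoter holds the TGACATCA shown above, was lowest in shCEBPB. JUN ran from 27.4 to 35.6 FPKM (median 29.6) in shCON and from 7.10 to 12.3 FPKM (median 10.5) in shCEBPB. In A2780, JUN ran from 19.3 to 24.6 FPKM (median 23.0), and in OlaR from 37.4 to 49.0 FPKM (median 44.1). No group overlapped another, and the order was OlaR, shCON, A2780 and shCEBPB. JUN was 3.07-fold lower in shCEBPB than in shCON (log2 fold change -1.55, standard error 0.11, adjusted p = 2.92e-10). It was 1.93-fold higher in OlaR than in A2780 (log2 fold change 0.92, standard error 0.065, adjusted p = 7.11e-11) and 1.42-fold higher in OlaR than in shCON (log2 fold change 0.49, standard error 0.070, adjusted p = 2.83e-05). For JUN, shCEBPB against shCON gave -1.96 and -1.28 within libraries 1 to 3 and 4 to 8, and OlaR against A2780 gave 0.66 and 1.07.

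JUNB (hg38, chr19:12791486-12793315, plus strand, 1 exon) is a weaker activator than JUN and is often an antagonist of it. Of its exonic bases 259 are shared with HOOK2 on the opposite strand, and whether counting used the strand is not given in the sources used here. JUNB ran from 101 to 142 FPKM (median 113) in shCON and from 79.1 to 186 FPKM (median 154) in shCEBPB. In A2780, JUNB ran from 19.9 to 29.8 FPKM (median 25.0), and in OlaR from 105 to 168 FPKM (median 147). A2780 was low and the other groups overlapped. JUNB was 5.49-fold higher in OlaR than in A2780 (log2 fold change 2.39, standard error 0.10, adjusted p = 2.11e-14) and 5.50-fold higher in shCEBPB than in A2780 (log2 fold change 2.35, adjusted p = 9.41e-11). Between shCEBPB and shCON JUNB differed by 0.14 on the log2 scale (standard error 0.18, adjusted p = 0.477). That value pooled -0.55 (adjusted p = 0.000939) within libraries 1 to 3 and 0.57 (adjusted p = 8.41e-05) within libraries 4 to 8, so its direction turned with the library number. In OlaR against A2780 JUNB gave 1.98 within libraries 1 to 3 and 2.64 within libraries 4 to 8.

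JUND (hg38, chr19:18279694-18281622, minus strand, 1 exon), which in most cells is expressed without a stimulus, was high where FOSL1 was low. JUND ran from 29.3 to 39.9 FPKM (median 37.8) in shCON and from 58.2 to 111 FPKM (median 94.9) in shCEBPB. In A2780, JUND ran from 78.0 to 109.6 FPKM (median 89.4), and in OlaR from 25.9 to 34.4 FPKM (median 28.9). shCEBPB and A2780 lay above shCON and OlaR without overlap, and within each of these pairs the libraries overlapped. JUND was 2.45-fold higher in shCEBPB than in shCON (log2 fold change 1.25, standard error 0.12, adjusted p = 1.68e-08), and 3.08-fold lower in OlaR than in A2780 (log2 fold change -1.59, standard error 0.070, adjusted p = 3.02e-14). For JUND, shCEBPB against shCON gave 0.79 and 1.54 within libraries 1 to 3 and 4 to 8, and OlaR against A2780 gave -1.86 and -1.43. Its transcript was among the richest in GC (69.9%), and with each library corrected for GC the fold changes were 0.89 and -1.02. In shCEBPB against A2780 the difference was not larger than the spread (log2 fold change -0.074, adjusted p = 0.529), with -0.55 (adjusted p = 0.000720) within libraries 1 to 3 and 0.21 (adjusted p = 0.00188) within libraries 4 to 8.

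JUNB made up 64.3% ± 1.89 of the Jun FPKM in shCON (SD, n = 7), 65.2% ± 2.42 in OlaR, 57.8% ± 3.81 in shCEBPB and 18.2% ± 0.904 in A2780 (n = 8 each). JUND made up 65.6% ± 1.13 in A2780, 37.8% ± 3.46 in shCEBPB, 19.2% ± 1.46 in shCON and 14.1% ± 1.20 in OlaR. JUN made up 4.31% ± 0.472 in shCEBPB and between 16.2% and 20.7% on average in the other groups. The Fos sum over the Jun sum was 1.96 ± 0.258 in shCON, 1.31 ± 0.176 in OlaR, 0.843 ± 0.204 in shCEBPB and 0.239 ± 0.0182 in A2780. It ran from 0.651 to 1.23 in shCEBPB and from 1.12 to 1.53 in OlaR, so these groups overlapped. In shCEBPB, JUNB and JUND were higher in libraries 4 to 8 than in 1 to 3, as described below.

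ATF3, BATF3 and MAFF are partners that mostly repress or compete. ATF3 (hg38, chr1:212565334-212620777, plus strand, 4 exons) is induced by stress and DNA damage. ATF3 ran from 9.78 to 11.6 FPKM (median 11.1) in shCON and from 20.7 to 28.6 FPKM (median 25.3) in shCEBPB. In A2780, ATF3 ran from 52.5 to 58.7 FPKM (median 55.6), and in OlaR from 7.35 to 9.10 FPKM (median 7.71). No group overlapped another, with A2780 highest, then shCEBPB, shCON and OlaR. ATF3 was 2.33-fold higher in shCEBPB than in shCON (log2 fold change 1.14, standard error 0.069, adjusted p = 2.67e-11) and 7.12-fold lower in OlaR than in A2780 (log2 fold change -2.69, standard error 0.041, adjusted p = 9.61e-22). It was also 1.38-fold lower in OlaR than in shCON (log2 fold change -0.42, standard error 0.050, adjusted p = 3.22e-06). For ATF3, shCEBPB against shCON gave 0.96 and 1.25 within libraries 1 to 3 and 4 to 8, and OlaR against A2780 gave -2.74 and -2.66.

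BATF3 (hg38, chr1:212686417-212699840, minus strand, 3 exons) lies 65639 bases from ATF3 on chromosome 1, has no transactivation domain of its own and is known from dendritic cells. BATF3 ran from 0.144 to 1.19 FPKM (median 0.461) in shCON and from 3.44 to 5.71 FPKM (median 4.46) in shCEBPB. In A2780, BATF3 ran from 7.88 to 9.92 FPKM (median 8.91), and in OlaR from 0.157 to 0.753 FPKM (median 0.329). shCEBPB and A2780 were apart from each other and above shCON and OlaR. BATF3 was 7.96-fold higher in shCEBPB than in shCON (log2 fold change 1.83, standard error 0.13, adjusted p = 2.15e-10) and 23.6-fold lower in OlaR than in A2780 (log2 fold change -2.86, standard error 0.073, adjusted p = 3.80e-18). For BATF3, shCEBPB against shCON gave 1.90 and 1.80 within libraries 1 to 3 and 4 to 8, and OlaR against A2780 gave -2.82 and -2.89. In shCON and OlaR its FPKM were counted in steps of 0.0288 on the scale of the first library. This step was chosen as the largest that put all 15 values within 0.15 of a whole number, so that closeness is no finding. In shCEBPB and A2780 the distance to a whole number reached 0.254 and 0.439. The low values came to between 5 and 40 steps (median 20) in shCON and between 6 and 30 (median 14) in OlaR. At such levels the difference between OlaR and shCON was not tested by limma, and the exact permutation test gave p = 0.228 (two-sided, n = 8 and 7). ATF3 and BATF3, which are neighbours, thus had the same order of shCEBPB over shCON and of A2780 over OlaR, but over the 31 libraries their deviations from the group means had r = -0.073.

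MAFF (hg38, chr22:38200767-38216507, plus strand, 3 exons) is a small MAF protein that pairs with NRF or BACH proteins, and it shares 326 exonic bases with PLA2G6 on the opposite strand. MAFF ran from 10.4 to 14.0 FPKM (median 12.0) in shCON and from 5.93 to 10.6 FPKM (median 9.75) in shCEBPB. In A2780, MAFF ran from 15.0 to 19.0 FPKM (median 16.6), and in OlaR from 7.78 to 11.7 FPKM (median 10.2). A2780 was above the others without overlap, and the others overlapped. MAFF was 1.33-fold lower in shCEBPB than in shCON (log2 fold change -0.39, standard error 0.098, adjusted p = 0.00134, exact permutation p = 0.000932), with -0.75 (adjusted p = 0.000219) within libraries 1 to 3 and -0.16 (adjusted p = 0.0216) within libraries 4 to 8. It was 1.71-fold lower in OlaR than in A2780 (log2 fold change -0.73, standard error 0.079, adjusted p = 4.23e-08), with -1.09 within libraries 1 to 3 and -0.51 within libraries 4 to 8. The promoters of JUND and MAFF shown above share TGACGTCA, and in shCEBPB against shCON the log2 fold changes of the genes were 1.25 and -0.39. Those of JUN and ATF3, which share TGACATCA, were -1.55 and 1.14. In OlaR against A2780 JUND and MAFF had -1.59 and -0.73, and JUN and ATF3 had 0.92 and -2.69. A part of these letters in the levels was not tested.

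OlaR and shCON had the most alike profiles, and FOS, FOSB and FOSL1 differed between them. Of the 9 members tested 7 passed (3 higher, 4 lower), where 42.2% of 11547 genes did, 5 did not overlap (16.6% of genes), and 2, FOS and FOSB, had a fold change of at least 2 (0.589% of genes). The median size of the log2 fold change was 0.42 for the 9 and 0.13 for all genes. JUN, FOS and FOSB were higher in OlaR, and FOSL1, ATF3, MAFF and JUND were lower. The members named above as immediate-early genes thus did not move as 1 group, since ATF3 was lower. For MAFF and JUND the groups overlapped (log2 fold changes -0.29 and -0.27, adjusted p = 0.0101 and 0.00858), and within libraries 4 to 8 neither passed, with -0.072 (adjusted p = 0.321) for MAFF and -0.10 (adjusted p = 0.311) for JUND. JUNB had a log2 fold change of 0.19 (adjusted p = 0.213), from -0.26 (adjusted p = 0.0180) within libraries 1 to 3 and 0.47 (adjusted p = 0.000391) within libraries 4 to 8. CEBPB was 1.30-fold higher in OlaR (log2 fold change 0.38, adjusted p = 0.000533), with overlapping libraries.

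In shCEBPB against A2780, 9 of 10 members passed (5 higher and 4 lower, where 88.9% of genes passed, 37.4% higher and 51.5% lower), 9 did not overlap (72.3%) and 6 differed at least 2-fold (38.5%). FOS, JUNB, FOSL1, FOSB and FOSL2 were higher in shCEBPB, by log2 fold changes of 3.80, 2.35, 1.46, 1.37 and 0.74. JUN, ATF3, BATF3 and MAFF were lower, with log2 fold changes of -1.12, -1.12, -0.86 and -0.83. Over all genes tested the log2 fold changes had a median of -0.18 in this comparison and -0.12 in OlaR against A2780, and relative to these medians MAFF stood at -0.65 and -0.61 and JUND at 0.10 and -1.47. In the remaining pairs, 10 of 10 members passed in shCON against A2780 (6 higher and 4 lower, 10 without overlap; 91.4%, 41.3%, 50.1% and 77.5% of genes). In shCEBPB against OlaR 8 of 10 passed (4 higher and 4 lower, 7 without overlap; 83.7%, 39.1%, 44.7% and 62.8% of genes). These comparisons share groups with those above and are no separate evidence of any order.

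The level of many members followed the number in the library codes, where the first 3 libraries of a group differed from those numbered 4 to 8. Nothing in the labels says what the numbers stand for. In shCEBPB, 8 of 10 members were higher in every library 4 to 8 than in any of 1 to 3 (22.9% of 12967 genes were), all but FOSL1 and BATF3. In OlaR, 5 were (JUN, JUNB, FOSB, FOSL2 and MAFF; 22.7% of genes). In A2780, MAFF alone was lower in 4 to 8 (10.3% of genes were lower), and in shCON no member was apart (2.51% of genes were higher and 2.35% lower). JUNB had the widest gap, with 79.1 to 99.4 FPKM in shCEBPB libraries 1 to 3 and 139.6 to 186 in 4 to 8.

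The same gap moved with GC content. Over 12434 genes the gap had r = 0.723 with transcript GC in shCEBPB, 0.765 in OlaR, -0.386 in shCON and -0.731 in A2780, a description across genes, which are not independent. In shCEBPB the median log2 gap was -0.28 among the 10% of genes lowest in GC and 0.40 among the 10% highest. JUNB (GC 64.9%) lay above 95.2% of genes in GC and JUND (69.9%) above 99.5%, while ATF3 (50.4%) lay above 53.8%. The part of GC in the members' differences was not tested. With each library corrected for GC, JUND went from 1.25 to 0.89 in shCEBPB against shCON and from -1.59 to -1.02 in OlaR against A2780. JUNB went from 0.14 to -0.065 and from 2.39 to 2.66. In shCEBPB against shCON the corrected values of FOS, FOSB, FOSL1 and FOSL2 were 3.39, -0.042, -3.60 and -0.40, and those of JUN, ATF3, BATF3 and MAFF were -1.56, 1.19, 1.74 and -0.45. In OlaR against A2780 those of FOS, FOSB, FOSL1 and FOSL2 were 1.64, 2.51, 4.41 and 1.08, and those of JUN, ATF3, BATF3 and MAFF were 0.94, -2.64, -2.75 and -0.65.

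Genes linked to AP-1 were described by lists, each with counts over the genes tested. In shCEBPB against shCON 38.9% of all genes tested were higher and 45.7% lower (median log2 fold change -0.065), and in OlaR against A2780 40.1% and 49.7% (median -0.12). Of the other bZIP partners (CREB, ATF, MAF, NRF and BACH genes), 12 of 22 tested rose and 9 fell in shCEBPB against shCON (median 0.35), and 3 of 23 were higher and 19 lower in OlaR than in A2780 (median -0.95). In OlaR against shCON 4 of 19 were higher and 3 lower (median 0.00061). CREM, a cAMP-responsive bZIP gene, had 53.0 ± 3.80 FPKM in shCEBPB and 4.20 ± 0.404 in shCON (log2 fold change 3.38), and 4.41 ± 0.332 in OlaR and 138 ± 5.96 in A2780 (-4.68). MAFA, a large MAF, had 7.04 to 14.5 FPKM in shCEBPB and 0.0554 to 0.322 in shCON, and 0.0715 to 0.208 in OlaR and 9.95 to 13.3 in A2780. CREM and MAFA were thus high in the groups where BATF3 was high. The stress factor DDIT3 (-1.21) and ATF2 (-1.33) had the largest falls in shCEBPB, and ATF6B (1.11) and NFE2L3 (0.38) the largest rises in OlaR.

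Of the C/EBP family 4 of 5 genes were tested. In shCEBPB, CEBPA rose (18.7 ± 7.12 against 2.90 ± 0.573 FPKM in shCON, log2 fold change 2.26), while the other 3 fell, CEBPB and CEBPG (-0.66) most. In OlaR against A2780, CEBPB was the 1 that rose in the pooled fit, though within libraries 1 to 3 its mean was lower in OlaR, as given above. CEBPG (-1.83) and CEBPA (-0.22) fell, and the median of the 4 was -0.12 (in shCEBPB -0.42).

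Of 27 MAPK kinases and upstream factors tested, 9 rose and 14 fell in shCEBPB against shCON (median -0.15), and 9 higher and 13 lower in OlaR than in A2780 (median -0.074). In OlaR against shCON 2 of 26 were higher and 8 lower (median -0.025). The p38 kinase gene MAPK13 ran from 0.219 to 0.363 FPKM in shCEBPB and from 9.95 to 11.7 in shCON, and from 10.8 to 12.0 in OlaR and 0.0176 to 0.139 in A2780, high where FOSL1 was high. MAP2K6, a kinase of p38, ran the opposite way, with 2.98 to 4.85 in shCEBPB, 0.0114 to 0.0644 in shCON, 0 to 0.0375 in OlaR and 3.22 to 3.55 in A2780. ELK1, which brings ERK signals to FOS, rose in shCEBPB (0.77), FBXW7, the ubiquitin ligase subunit that marks JUN for decay, fell (-1.62), and in OlaR ETS2 rose (3.86) and MAPK11 fell (-1.80).

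Of 18 feedback genes of ERK signalling, 4 rose and 13 fell in shCEBPB against shCON (median -1.45), and 7 higher and 8 lower in OlaR than in A2780 (median -0.11). In OlaR against shCON none of 17 was higher and 10 were lower by limma (median -0.22). The ERK phosphatase DUSP6 had 16.8 ± 0.803 FPKM in shCON and 0.338 ± 0.104 in shCEBPB, and 17.2 ± 0.720 in OlaR and 139 ± 3.11 in A2780. DUSP5, another, had 75.3 ± 2.88 in shCON, 7.46 ± 0.754 in shCEBPB, 61.4 ± 3.06 in OlaR and 4.31 ± 0.439 in A2780, the same order as FOSL1. DUSP2 (3.51) and DUSP1 (1.95), which are themselves immediate-early phosphatases, rose with FOS in shCEBPB. DUSP4 (3.11) rose and SPRY1 (-3.79) fell in OlaR.

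Of 22 other immediate-early genes tested, 11 were higher and 10 lower in shCEBPB (median 0.14) and 12 higher and 10 lower in OlaR against A2780 (median 0.21), and 7 of 20 higher and 9 lower in OlaR against shCON (median -0.034). SGK1 (3.37) and the orphan receptor NR4A1 (3.13) rose with FOS in shCEBPB, while BTG2 (-3.40) and GADD45B (-2.47) fell, so immediate-early genes did not move as 1 group. EGR1 (2.80) and BTG2 (2.76) rose in OlaR, and CTGF (-4.04) and NR4A3 (-3.50) fell.

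Of known AP-1 target genes, 7 of 21 tested rose and 14 fell in shCEBPB against shCON (median -1.20), and 9 of 22 higher and 13 lower in OlaR than in A2780 (median -0.94). In OlaR against shCON all 19 tested passed, 2 higher and 17 lower (median -0.51), where 19.3% of all genes tested were higher and 22.9% lower (median -0.017). The EGF-like ligand gene EREG had 14.5 ± 0.837 FPKM in shCON and 0 to 0.0937 in shCEBPB. VIM, also a marker above, and the integrin ITGA5 rose in shCEBPB (4.99 and 3.89). The adhesion receptor CD44 ran from 56.4 to 70.3 FPKM in OlaR and from 0 to 0.00969 in A2780, and EREG from 9.60 to 14.9 and 0 to 0.0835. The protease MMP10 was listed at 0 in all OlaR libraries and ran from 783 to 899.8 FPKM in A2780. Members of this list thus moved in both directions in both comparisons.

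Over the 31 libraries, the deviation of each gene from its group mean of log2(FPKM + 1) was compared with that of 12967 genes, as a description. These deviations share the library number, depth and GC content. The genes most like JUN were ABHD17A (0.955), FAM83H (0.954), AGRN (0.947), those most like JUNB EFHD2 (0.983), UBXN6 (0.974), PFKL (0.973) and those most like JUND PWWP2B (0.953), ZNF598 (0.951), IRF2BPL (0.948), with Pearson's r in parentheses. FOSL2 was most like LMNB2 (0.958), OPLAH (0.953), SRC (0.952), and MAFF most like PPP4C (0.941), SLC3A2 (0.934), IFI27L2 (0.931). FOSB came next, with ARF3 (0.863), TNXB (0.846), SQSTM1 (0.845). The values were lower for ATF3, with CDK20 (0.77), CPT1C (0.76), FSCN2 (0.737), and for BATF3, with HIST1H2BN (0.734), PTGS1 (0.691), CDK18 (0.654). They were lowest for FOS, with HES1 (0.682), SDF2 (0.674), GNB1L (0.67), and for FOSL1, with ERGIC1 (0.632), NPR1 (0.632), ZNF692 (0.613). Among the members, JUN, JUNB, JUND, FOSL2 and MAFF deviated together, with r between 0.788 and 0.902 for every pair of them. FOSL1 went with none of the other members, with r between -0.26 and 0.244, and neither did BATF3, with r between -0.272 and 0.104.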

How the data were processed

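The table that the authors deposited holds FPKM per gene symbol for 31 libraries. Per the labels and the methods of the study, total RNA was extracted with TRIzol, mRNA libraries were sequenced as 150-bp paired ends with at least 6 Gb per sample, mapped with TopHat to hg38 and counted with HTSeq. The tool and annotation behind the FPKM are not given in the sources used here, and counts were not used here, so absolute depth is unknown and only a relative depth was derived, from the steps in which low FPKM rise. The sample labels gave each library its group and replicate number.

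Of 19225 entries, 4 were dropped because their symbol was repeated. Genes that reached 1 FPKM in a number of libraries equal to the size of the smaller group were tested with limma 3.58.1 (R 4.3.3; lmFit, eBayes with trend) on log2(FPKM + 1), with only the 2 groups compared and no covariate, and the test was first tested on simulated data. Exact permutation tests, ratios, shares and figures were made with Python 3.11.15, numpy 2.4.6, pandas 2.3.3 and matplotlib 3.10.9. Positions, exons and GC content came from GENCODE 44 on hg38 by symbol. The members, the gene lists and the marker lists were chosen with earlier results of these data known. Named genes are the 10 members, CEBPB, the 2 genes of each list with the largest rise and fall in the first 2 comparisons, and the 3 genes most like each member. A gene that this rule names is not reported here. Single genes of the marker lists were named after their values were seen. Alternatives were other pseudocounts (0.1 and 0.01), no filter and a filter at 5 FPKM, a common sum of FPKM, quantile normalization, 1 fit of all 4 groups, a replicate block, a fold change of at least 2 and the library numbers 1 to 3 and 4 to 8 apart. A GC correction of each library (lowess over genes) was added after seeing the data. On average, libraries with the same replicate number did not deviate together in the 4 comparisons examined (mean r between -0.26 and -0.15). Single pairs ran from -0.68 to 0.46. In shCEBPB against OlaR and shCON against A2780 this was not examined. With the replicate number as a block, 89.5% of genes passed in shCEBPB against OlaR, and 83.7% without it. No label says that such libraries were made together, so they were not taken as pairs. In shCON, replicates 6 and 7 have the library codes 7 and 8, so pairing by library code was not tested in comparisons with shCON.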

Additional observations from a re-analysis of the deposited data

Results flagged for a closer look

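FOSL1 in A2780 replicate 6 was 7.48 FPKM, the lowest of its 8 libraries, and the next was 8.65. Its gap to the next library was 0.543 of the range of the group, above the critical value of 0.526 of Dixon's test. Of 44 sets of 1 gene in 1 group 1 was picked out in this way, where chance picks out about 1 in 20. FOSL1 in this library remained below every library of the other groups.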

How the results depend on the processing

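Of 428 recomputed fold changes of the members in the 4 comparisons, 408 kept their direction and their side of the threshold. In 10 the direction changed, and of those that kept it 4 lost the call and 6 gained one. Some that changed direction also passed the threshold. JUNB did within libraries 1 to 3 in shCEBPB against shCON (adjusted p = 0.000939) and in OlaR against shCON (adjusted p = 0.0180). JUND did within libraries 4 to 8 in shCEBPB against A2780, as given above. The number of members called stayed within 1.5 times in every comparison and setting, except that a fold change of at least 2 left 2 members in OlaR against shCON. JUNB in shCEBPB against shCON was -0.55 within libraries 1 to 3 and -0.065 with the GC correction, which was chosen after seeing the data. FOSB in that comparison was -0.22 (adjusted p = 0.0252) within libraries 1 to 3, 0.0085 with a common sum of FPKM, 0.13 with quantile normalization and 0.14 within libraries 4 to 8. In OlaR against shCON, JUNB was -0.26 within libraries 1 to 3 and FOSL2 -0.40 (adjusted p = 0.000455) within libraries 1 to 3 and 0.077 within libraries 4 to 8. In shCEBPB against A2780, JUND was 0.21 within libraries 4 to 8 and 0.032 with the GC correction. None of these passed the threshold in the pooled fit, and the cause was not tested. With the GC correction the median of all genes tested moved from -0.12 to 0.018 in OlaR against A2780 and from -0.18 to 0.023 in shCEBPB against A2780, where quantile normalization moved it to -0.060.

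With the replicate number as a block (replicate block), 8, 10 and 9 members were called in shCEBPB against shCON, OlaR against A2780 and shCEBPB against A2780, as without it. Since shCON replicates 6 and 7 have the library codes 7 and 8, the block was not the library code in comparisons with shCON. In OlaR against shCON the block left 5 of 7 calls, since JUND (adjusted p = 0.0599) and MAFF (adjusted p = 0.0575) no longer passed, and FOSB in shCEBPB against shCON was 0.0097. Of the pairs with the same replicate number, between 1 and 2 of 7 or 8 per comparison had r over 0.1.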
